A study of Mus musculus with 12 samples.

Results

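Thymocytes leave the double-positive stage only if their T cell receptor (TCR) binds self-peptide on MHC with enough strength to signal, a step called positive selection. The results below concern 10 genes that such signals are known to induce in thymocytes: the surface molecules Cd69, Cd5 and Itm2a, the transcription factors Egr1, Egr2, Egr3, Nr4a1 and Nr4a3, the IκB-like protein gene Nfkbid, and Id3. They were picked by name for this known role, but with earlier results of these data known. All 10 were found among the 55335 gene rows of each count table. Of the 10, 9 had enough reads to be tested and Egr2 did not.

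Thymocytes came from the thymus of 6-week-old mice kept under specific-pathogen-free conditions. 3 mice were wild type (WT) and 3 carried a knockout of the neighbouring microRNA genes of miR-181a/b-1 (KO). The labels give the deletion only as KO. All cells were strained from the thymus and placed at once in buffer with cycloheximide, which stalls ribosomes on mRNA. Each genotype was read by RNA-seq and by ribosome footprinting, in which only the mRNA fragments covered by ribosomes are sequenced, so that 12 libraries form 4 groups of 3. The labels do not say which RNA-seq and which footprint library came from the same mouse. No sort is named, so the libraries hold whatever cells passed the strainer.

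When the TCR is engaged, kinases and calcium carry the signal to ERK, NFAT and NF-κB, and these switch on immediate-early genes such as the EGR and NR4A factors within a short time. EGR factors in turn raise Id3, which blocks E proteins, while CD69 and CD5 appear on the cell surface and are used as readouts of the signal, CD5 also as a brake on it. miR-181a is abundant in double-positive thymocytes and is known to raise their TCR sensitivity by lowering phosphatases that restrain the signal. The mature microRNAs of the deleted pair, which other loci of the family also encode, are shown because the genotypes differ in these genes, with the seed (bases 2 to 8 from the 5′ end) in capitals, from RefSeq on GRCm38.p6.
mmu-miR-181a-5p: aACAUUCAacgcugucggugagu
mmu-miR-181b-5p: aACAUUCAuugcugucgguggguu
The first lies at chr1:137966468-137966490 and the second at chr1:137966650-137966673, both on the plus strand. They share the seed ACAUUCA and are identical at 20 of the first 23 positions.

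Depth ran from 4479182 to 8180286 gene reads in RNA-seq and from 4069968 to 17859770 in footprints. The Mir181a-1 gene had 148 ± 16.8 CPM (SD, n = 3; CPM are reads per 1000000 in genes, scaled by edgeR) in WT footprint libraries and 0.828 ± 0.317 in KO (SD, n = 3). In RNA-seq it had 57 reads in the libraries labelled WT and 67 in those labelled KO, so the RNA-seq labels have no such check and directions in RNA-seq are as labelled. All 7 thymocyte identity markers were detected in every group. The deposited counts are named as adjusted, with no source saying for what. WT and KO libraries with the same replicate number lay on opposite sides of their group means across genes, so the SDs and p-values below may not measure the spread between mice.

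In ribosome footprints, 8 of the 9 tested genes rose in KO thymocytes and none fell. Over all 13509 genes tested, 17.6% were called and 9.25% were called higher (edgeR's quasi-likelihood test, false discovery rate, FDR, under 0.05). The 8 genes were Egr3, Nr4a3, Cd69, Egr1, Nfkbid, Nr4a1, Itm2a and Cd5, in order of the size of the change, and Id3 was the exception. The median log2 fold change of the 9 was 0.51, beside -0.01 over all genes tested. For those 8 genes every KO library lay above every WT library, a pattern that 18.5% of all genes showed. When the replicate number was added to the fit as a block, 4 of the 8 calls remained (Cd69, Nr4a3, Nr4a1 and Egr1). Of all genes, 3.02% were then called and 1.89% called higher. Same-numbered WT and KO libraries deviated in opposite directions, so the block had little shared shift to remove. The block still costs degrees of freedom. If the adjustment had already taken out a shift per replicate number, p-values without the block are too small. What was adjusted is not stated, so a call lost with the block, here and below, is the less secure. In bulk thymocytes, a change in how many cells carry a transcript and a change in its amount per cell cannot be told apart.

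**Figure D1:**
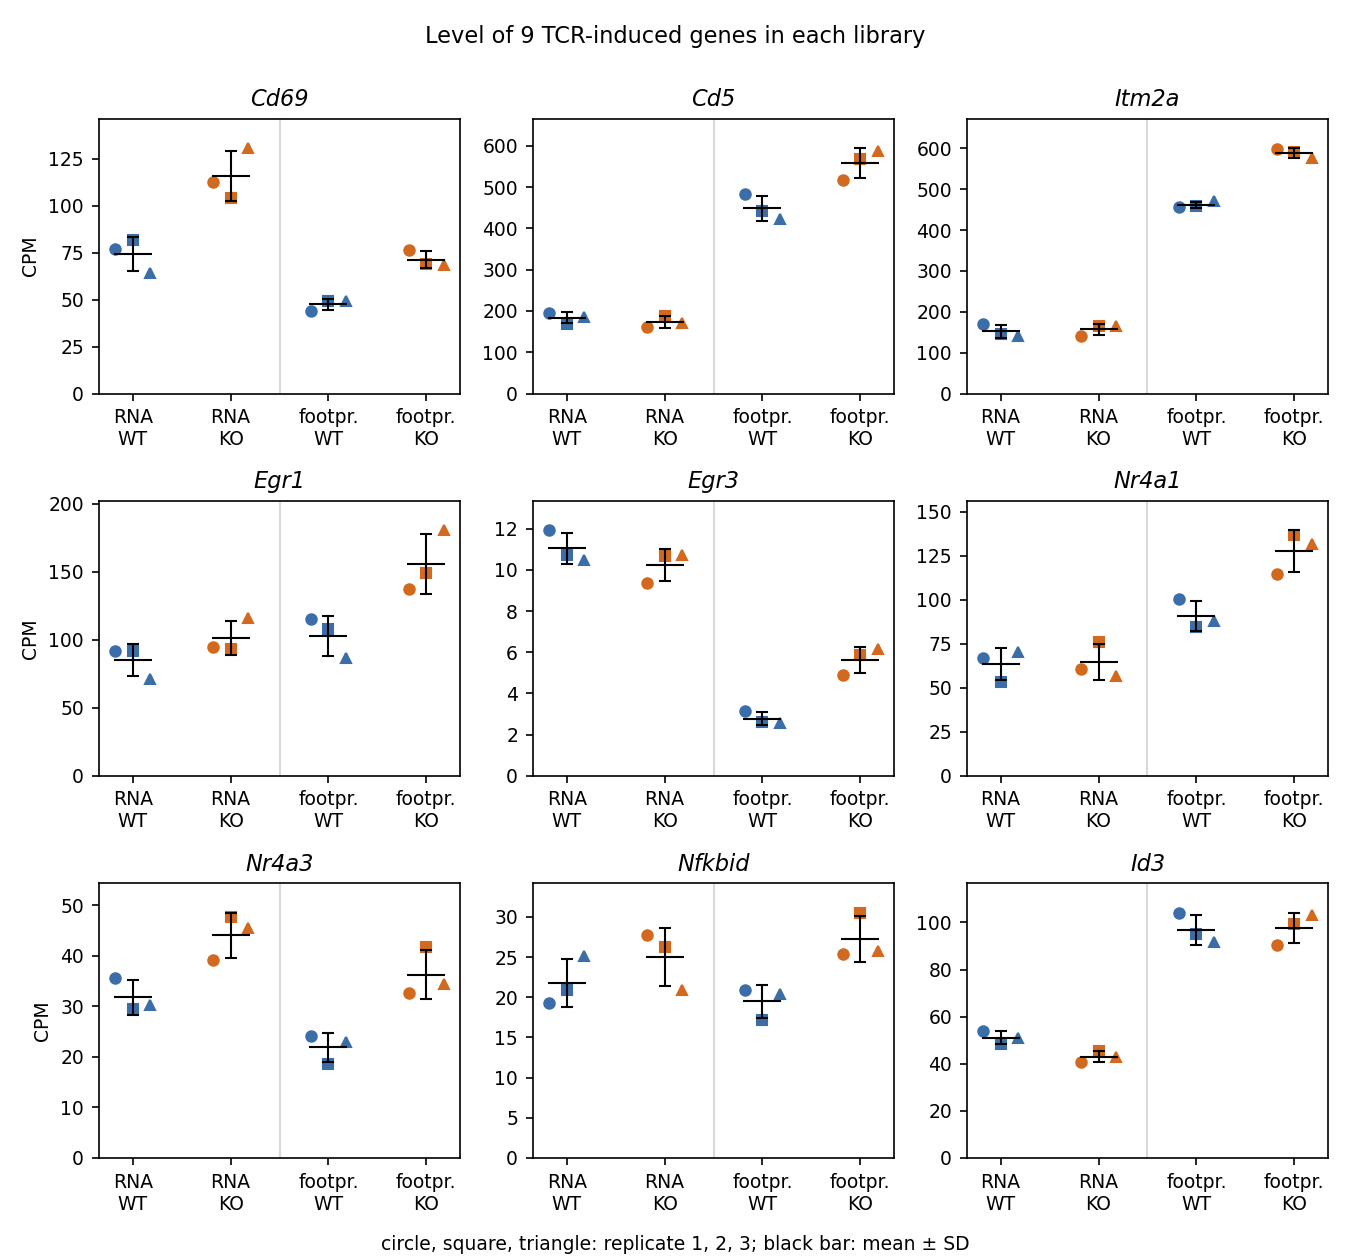
Level in CPM (vertical axis from 0) of the 9 tested genes in each of the 12 libraries, with WT in blue, KO in orange and the mean ± SD of 3 libraries in black. In footprints the KO points of every gene but Id3 lie above all WT points, whereas in RNA-seq this holds for Cd69, Nr4a3 and Egr1.

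Cd69 encodes a C-type lectin that appears early after TCR signals and holds cells in the thymus by removing the receptor S1PR1 from the surface. Its footprint levels were 44.1, 49.0 and 49.1 CPM in the WT libraries and 76.4, 69.0 and 68.5 CPM in the KO libraries. The lowest KO library thus stood well above the highest WT library, and the log2 fold change was 0.60 ± 0.07 (SE; FDR 0.00309), or 1.51-fold. In RNA-seq the libraries labelled WT held 77.1, 81.9 and 64.2 CPM and those labelled KO 113, 104 and 131 CPM, again without overlap, as for 15.5% of all genes. Cd69 was the 1 gene of the 9 that was called in RNA-seq, with a log2 fold change of 0.64 ± 0.12 (SE; FDR 0.0315), where 6.91% of 13652 genes were called and 3.48% called higher. That RNA-seq call was lost with the replicate block (FDR 0.104), under which 0.806% of all genes were called. It was also lost without any 1 of the 6 libraries (FDR 0.0516 to 0.0946), where 1.55% to 2.32% of all genes were called. In those omissions the log2 fold change of Cd69 stayed between 0.54 and 0.72. The footprint call of Cd69 held with the block and without any 1 of the 6 footprint libraries. Omitting a WT library or the KO library of the same number gave much the same change. For Cd69 footprints it was 0.543 without WT replicate 1 and 0.547 without KO replicate 1. Omissions of same-numbered libraries, here and below, are therefore not separate checks.

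Cd5, a scavenger-receptor-like glycoprotein that dampens TCR signals, had 482, 441 and 423 CPM of footprints in WT and 517, 568 and 588 in KO. The groups did not overlap, although the highest WT library came close to the lowest KO library. The log2 fold change was 0.31 ± 0.07 (SE; FDR 0.0265), and it was no longer called with the block (FDR 0.131) or without WT replicate 2, WT replicate 3, KO replicate 2 or KO replicate 3 (FDR up to 0.0910). Its RNA overlapped between the libraries labelled WT (195, 169 and 185 CPM) and those labelled KO (162, 189 and 169.8 CPM), with a 95% interval of -0.28 to 0.12 for the log2 fold change.

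Itm2a encodes a type II membrane protein that was described as a marker of selected thymocytes. Its footprints were the least variable of the 9 genes: 455, 459.8 and 471 CPM in WT and 598.5, 591 and 575 CPM in KO. The difference, a log2 fold change of 0.35 ± 0.03 (SE; FDR 0.00197), was many times the spread of the adjusted counts within either group. That spread may not be the spread between mice, and with the block the FDR was 0.0532. In RNA-seq the 2 genotypes overlapped, at 169, 145 and 141 CPM for the label WT and 140.3, 165 and 165 CPM for the label KO. The interval there ran from -0.19 to 0.28.

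The EGR factors are zinc-finger proteins induced through ERK. In the edgeR fit, Egr3 showed the largest footprint change of the 9 genes, from 3.15, 2.63 and 2.56 CPM in WT to 4.92, 5.85 and 6.14 CPM in KO. These levels came from few reads, 27 to 55 per WT library and 25 to 90 per KO library. The log2 fold change was 0.98 ± 0.13 (SE; FDR 0.00585), or 1.98-fold, and with the block the FDR was 0.0766. Egr3 RNA overlapped between genotypes: the libraries labelled WT held 11.9, 10.7 and 10.5 CPM and those labelled KO 9.36, 10.7 and 10.7, with an interval of -0.35 to 0.13.

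Egr1 footprints were 115, 108 and 86.4 CPM in WT and 137.5, 149 and 180.4 CPM in KO, and the log2 fold change was 0.57 ± 0.13 (SE; FDR 0.0319). KO replicate 3, the shallowest footprint library, was the highest. The call held with the block (FDR 0.0491) but was lost without WT replicate 2, WT replicate 3, KO replicate 2 or KO replicate 3 (FDR up to 0.0795). Egr1 RNA was 91.6, 91.8 and 71.5 CPM in the libraries labelled WT and 94.6, 93.3 and 116 CPM in those labelled KO. These did not overlap either, but the gap was small and the change of 0.26 ± 0.13 (SE; FDR 0.289) was not called.

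Egr2, the third factor of the family, was barely detected in either assay. It had 4 RNA-seq reads over the 3 libraries labelled WT and 6 over those labelled KO, a ratio of 1.63 relative to depth with an exact conditional 95% interval of 0.386 to 7.85. In footprints it had 9 reads in WT and 1 in KO, a ratio of 0.169 with an interval of 0.00385 to 1.22. These intervals cover counting error only, and no difference was detectable at this depth.

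Nr4a1 (Nur77) and Nr4a3 (Nor1) are orphan nuclear receptors, and Nr4a1 is the usual reporter of TCR signal strength. Nr4a3 footprints were 24.0, 18.6 and 22.9 CPM in WT and 32.7, 41.8 and 34.4 CPM in KO. They rose by 0.75 ± 0.13 on the log2 scale (SE; FDR 0.0135), a call that the block kept (FDR 0.0344). Its RNA was 35.6, 29.4 and 30.2 CPM for the label WT and 39.1, 47.6 and 45.5 CPM for the label KO. There too no KO value reached down to the WT values, but the change of 0.47 ± 0.11 (SE; FDR 0.0547) fell just short of the threshold and passed it without a filter on low counts (FDR 0.0329).

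Nr4a1 footprints rose from 100.2, 84.4 and 87.8 CPM in WT to 114, 137 and 132 CPM in KO, by 0.49 ± 0.09 on the log2 scale (SE; FDR 0.0160; with the block 0.0438). Leaving out KO replicate 2 took the FDR to 0.0609, and none of the other 5 omissions ended the call. In RNA-seq its levels overlapped, at 67.1, 53.4 and 70.1 CPM for the label WT and 60.7, 76.2 and 56.8 CPM for the label KO. The RNA interval was wide, from -0.34 to 0.36, and it overlaps the footprint interval of 0.27 to 0.71.

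Nfkbid encodes IκBNS, a nuclear IκB protein that binds NF-κB subunits. Footprints were 20.9, 17.2 and 20.4 CPM in WT and 25.3, 30.5 and 25.8 CPM in KO, without overlap. The log2 fold change was 0.51 ± 0.11 (SE; FDR 0.0253), which was lost with the block (FDR 0.120) and without WT replicate 2, WT replicate 3 or KO replicate 2 (FDR up to 0.0878). RNA levels overlapped, with 19.2, 20.9 and 25.1 CPM for the label WT against 27.8, 26.3 and 21.0 CPM for the label KO (interval -0.16 to 0.54).

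Id3, the inhibitor of E proteins and a known EGR target, stood apart. Its footprints were 104, 95.2 and 91.5 CPM in WT and 90.5, 99.5 and 103 CPM in KO, fully overlapping, with a log2 fold change of 0.00 and an interval of -0.16 to 0.17. In RNA-seq every library labelled KO (40.7, 45.5 and 42.8 CPM) was below every library labelled WT (53.9, 48.5 and 51.0 CPM), as for 15.4% of all genes. The RNA change of -0.25 ± 0.07 (SE) was not called (FDR 0.0871; unadjusted p = 0.00995).

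**Figure D2:**
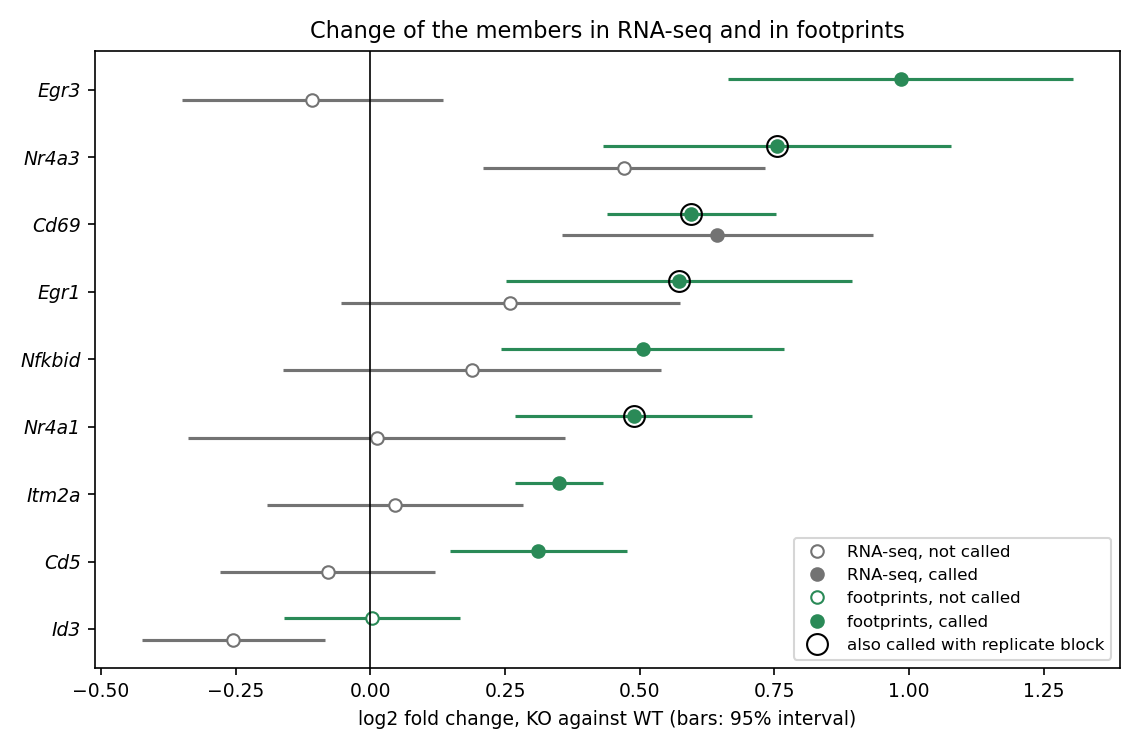
Log2 fold change (horizontal axis) of KO against WT for the 9 tested genes, in RNA-seq (grey) and footprints (green), with 95% intervals as bars, filled points for calls at FDR under 0.05 and rings for calls kept with the replicate block. The green points of 8 genes are filled, and the grey point of Cd69 is the only filled one in RNA-seq.

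Set side by side, the changes in RNA-seq ranged from -0.25 to 0.64 with a median of 0.05, and those in footprints from 0.00 to 0.98. Whether a gene's change differed between the assays was tested with the interaction of genotype and assay, which measures the change in footprints beyond that in RNA. Egr3 alone passed, with an interaction of 1.09 ± 0.18 (SE; FDR 0.0294), where 0.211% of 11854 genes were called and 0.135% called higher. That call was lost with the replicate block within each assay (FDR 0.998, with 0.0169% of all genes called) and without a filter on low counts (FDR 0.0521, with 0.0761% called). It was also lost without any 1 of the 12 libraries (FDR 0.0519 to 0.124), where 0.0496% to 0.201% of all genes were called. It held with RNA-seq and footprint libraries of the same genotype and number taken as a block (FDR 0.0362, with 0.143% called).

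For the other 8 genes the footprint change was not shown to differ from the RNA change. The estimates were positive for 7 of them, 0.48 ± 0.18 for Nr4a1, 0.39 ± 0.11 for Cd5, 0.30 ± 0.11 for Itm2a and 0.26 ± 0.11 for Id3 (SE), each with an unadjusted p under 0.05, and between 0.28 and 0.32 for Nfkbid, Egr1 and Nr4a3. The median over the 9 was 0.31, beside 0.01 over all genes, of which 52.0% were positive. Unadjusted p-values under 0.05 were found for 5 of the 9 and for 14.0% of all genes. Cd69 went the other way at -0.05 (interval -0.37 to 0.26), since its footprints rose by 0.60 and its RNA by 0.64.

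The ratio of footprints to RNA in WT cells, a description with no test, varied widely among these genes. Itm2a and Cd5 were near the top of all genes measured in both assays, with log2 ratios of 1.60 (percentile 92.4) and 1.29 (percentile 88.0). Id3 followed at 0.92 and Nr4a1 at 0.52. Egr1, at 0.28, was the median of the 9, while the median of all genes was -0.20. Nfkbid (-0.16), Nr4a3 (-0.54) and Cd69 (-0.65) lay lower, and Egr3 was lowest at -1.99 (percentile 10.4). In KO cells the ratio was higher for 8 of the 9 genes, with Egr3 at -0.86 (percentile 29.9) and a median of 0.62, beside -0.16 for all genes.

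**Figure D3:**
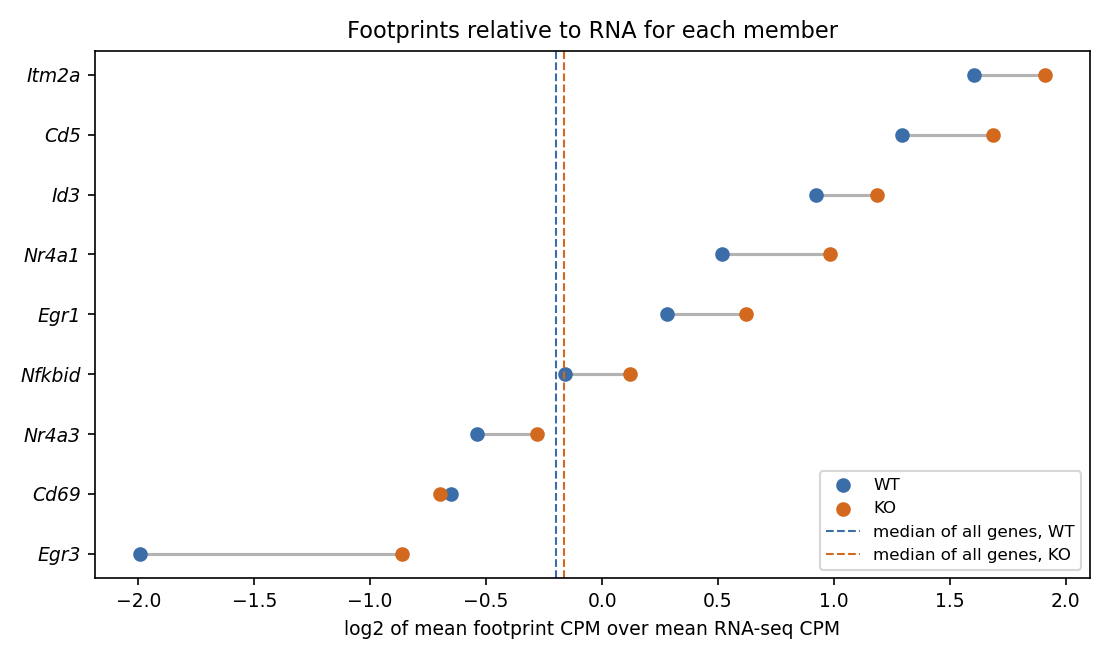
Log2 ratio of mean footprint CPM to mean RNA-seq CPM (horizontal axis) for each of the 9 genes in WT (blue) and KO (orange), with dashed lines at the median of all genes tested in both assays. Egr3 shows the widest gap between genotypes, from -1.99 to -0.86, and Cd69 the narrowest.

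In the authors' deposited table, 8 of the 9 genes were listed as significantly up in footprints, all but Id3, where 6.25% of the listed genes were. There the footprint log2 fold change of Egr3 was 0.57, against 0.98 in the edgeR fit. It stood below that of Nr4a3, at 0.62, so Egr3 did not rank first in the authors' values. In RNA-seq the authors' deposited table listed Cd69 alone, with a log2 fold change of 0.58 and an adjusted p of 0.000222, where 2.46% of genes were listed as up.

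Other genes of the same pathway are given next by list, and their counts are to be read beside the 17.6% of all genes called in footprints. Among 12 other immediate-early genes, 10 were tested in footprints and 3 were called: Ier2 rose, and Jun and Dusp1 fell. Jun, a subunit of AP-1, had a log2 fold change of -0.69 ± 0.09 (SE; FDR 0.00474), and with the block none of the 3 was called. Of 21 other genes induced by TCR signals, all were tested, 5 rose (Nr4a2, Dusp6, Tox, Bcl2l11 and Dusp2) and Myc fell. Dusp6, an ERK phosphatase, and Tox, a nuclear factor needed for CD4 lineage development, were called with and without the block. Dusp6 footprints were 67.5, 65.5 and 61.0 CPM in WT and 106, 109 and 117 in KO, and the log2 fold change was 0.76 ± 0.05 (SE; FDR 0.000665). Tox footprints were 216, 215 and 194 CPM in WT and 336, 339 and 372 in KO, with a log2 fold change of 0.74 ± 0.06 (SE; FDR 0.00118). In neither gene did the genotypes overlap.

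Nr4a2, the remaining NR4A receptor, rose in both assays, by 0.76 ± 0.11 in footprints (SE; FDR 0.00723) and by 1.26 ± 0.22 in RNA-seq (FDR 0.0262), from low levels of 2.41 to 2.84 CPM in WT footprints and 1.27 to 2.23 CPM in RNA labelled WT. Neither Nr4a2 call survived the block (FDR 0.208 and 0.216) or DESeq2 (adjusted p 0.148 and 0.161). The RNA-seq call was lost without any 1 of the 6 libraries (FDR 0.0516 to 0.0945), where 1.55% to 2.32% of all genes were called. Itm2b, a paralog of Itm2a, rose in footprints by 0.15 ± 0.04 (SE; FDR 0.0498; with the block 0.427). Both NAB corepressors, which bind EGR proteins, rose in footprints: Nab2 by 0.55 ± 0.14 (SE; FDR 0.0399) and Nab1 by less. Of 10 NF-κB subunits and IκB proteins, 3 rose in footprints (Nfkbiz, Nfkb2 and Nfkb1) and none fell. All 10 estimates were positive there, with a median of 0.22, beside 48.4% positive over all genes. In RNA-seq 6 of these 10 estimates were positive and none was called, where 6.91% of all genes were. Among 5 E-protein and other Id genes, 2 rose in footprints: Tcf4 by 0.42 ± 0.09 (SE; FDR 0.0269), and Tcf12, both E proteins. None of the NAB, NF-κB, E-protein or Id calls held with the block.

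**Figure D4:**
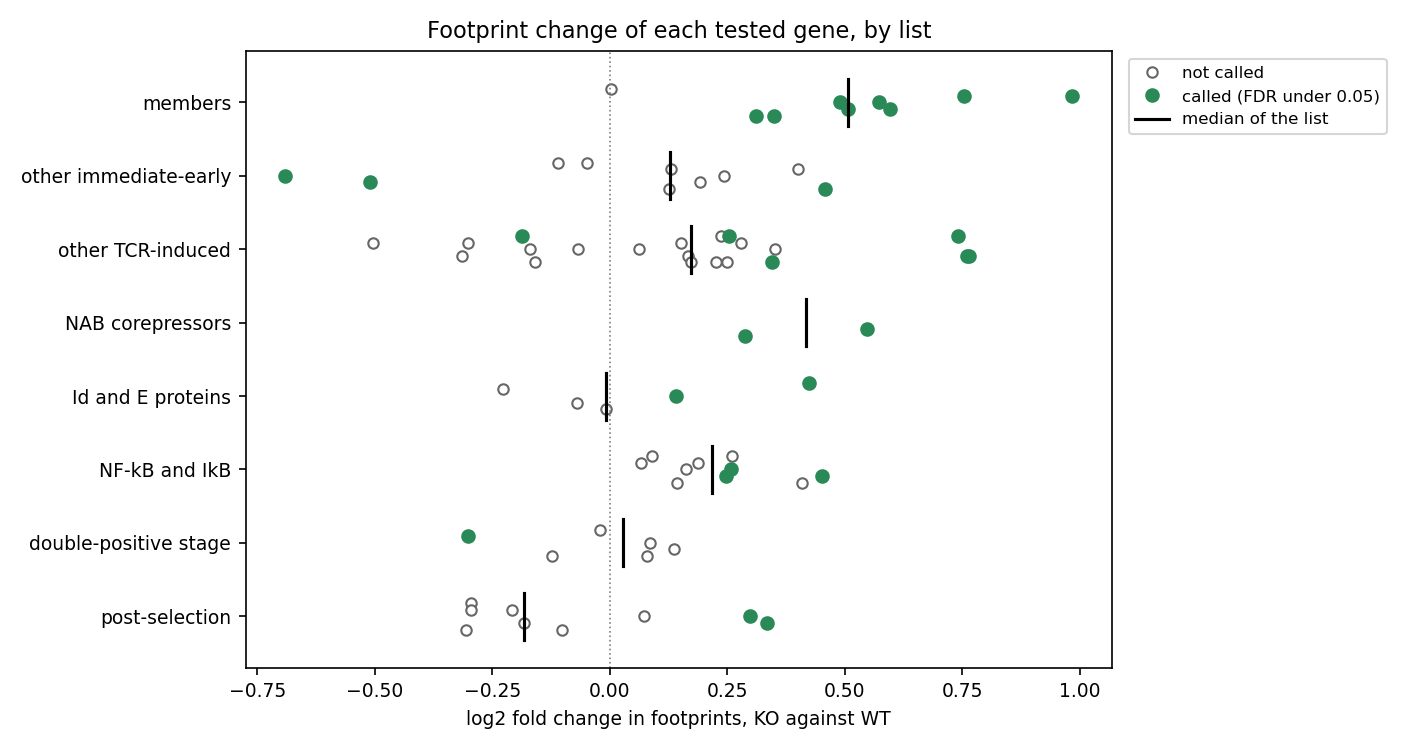
Log2 fold change in footprints (horizontal axis) of each tested gene, grouped by list, with filled points for calls at FDR under 0.05 and a black bar at each list's median. The members' median of 0.51 lies to the right of the medians of the other 7 lists drawn (the list of paralogs is not drawn), and the immediate-early list holds the 2 most negative calls, Jun and Dusp1.

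Genes that mark the stages on either side of positive selection did not move in 1 direction. Of 6 genes high in double-positive thymocytes, Rag1 fell in footprints, by 0.30 on the log2 scale (SE 0.05; FDR 0.00866), and the other 5 were not called there. In RNA-seq 1 of the 6 was called higher and none lower. Of 9 genes higher after selection, 2 rose in footprints, Cd53 among them, and none fell, although 6 of the 9 estimates were negative and their median was -0.18. In RNA-seq Ccr7 and Klf2 fell and none rose. With the block none of these was called. Across all 68 other pathway and stage genes, 5 were called in RNA-seq, where 6.91% of all genes were, and 20 in footprints, where 17.6% were.

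Summed levels of cell type markers are given beside the footprints in which the 8 genes rose. Of all single genes tested in footprints, 38.1% had groups that did not overlap. The 7 thymocyte markers summed to 9346 to 10141 CPM in WT and 10899 to 11857 in KO, with Cd4 called higher (log2 fold change 0.57 ± 0.06, SE; FDR 0.00335; with the block 0.0121) and Lck lower. The 6 double-positive genes summed to 14808 to 15586 CPM in WT and 13243 to 13871 in KO. Rag1 alone went from a mean of 9951 to 8068 CPM, which is more than the fall of the sum from 15213 to 13525. The sums of the 5 B cell markers, none of them at 0 reads, overlapped at 43.4 to 57.6 CPM in WT and 56.2 to 75.5 in KO, and 1 of the 5, Cd79b, was called (0.48 ± 0.06, SE; FDR 0.00416; with the block 0.0466). Footprint sums of myeloid and dendritic markers (182 to 221 CPM in WT and 171 to 214 in KO) overlapped too, with Siglech lower (-1.03 ± 0.18, SE; FDR 0.0126; without KO replicate 2 0.0613). So did those of erythroid markers, with Alas2 lower, and of fibroblast and endothelial markers, with Pecam1 higher, neither of which was called with the block. The 5 thymic epithelial markers summed to 75.5 to 82.3 CPM in WT and 59.8 to 70.5 in KO. Of these only Epcam was called, at -0.50 ± 0.12 (SE; FDR 0.0339), and the call was lost with the block (FDR 0.104) and without any library but WT replicate 1 (FDR up to 0.0766).

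In RNA-seq, where Cd69 was called, the B cell sums overlapped, at 12.2 to 17.2 CPM for the label WT and 17.0 to 23.1 for the label KO. There the erythroid sums (76.0 to 90.9 CPM for WT and 46.6 to 58.4 for KO), the epithelial sums (18.9 to 22.2 and 14.2 to 17.3) and the fibroblast and endothelial sums (209 to 213 and 236 to 244) did not overlap. Of all single genes tested in RNA-seq, 30.9% had groups that did not overlap. The part of any of these lists in the changes of the 10 genes was not tested.

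Across the 12 libraries, with each assay centred on its own mean, the gene closest in pattern to each of these 9 lay outside the 9. Nearly all genes searched lay outside the 9, so this does not show whether the 9 share a pattern. Each correlation with a closest gene is the highest of all genes searched, which raises it. Among 8099 genes the Pearson correlation was 0.997 between Cd69 and Cd79b, 0.988 between Nr4a3 and Sesn3, 0.985 between Nr4a1 and Arid5a, 0.983 between Egr1 and Phc3, 0.976 between Egr3 and Arl13b, 0.970 between Id3 and Tcf7, 0.969 between Cd5 and Pip4k2b, 0.967 between Nfkbid and Stat3 and 0.956 between Itm2a and Bcl10. The most alike pair within the 9 was Cd5 and Nr4a1, at 0.918, and the least alike was Cd69 and Id3, at -0.623. These values share libraries and the genotype difference, and they are a description. Same-numbered WT and KO libraries mirrored each other, so the 12 values of a gene are not independent.

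RefSeq promoter entries matched 7 of the 10 genes (Cd5, Egr2, Id3, Itm2a, Nfkbid, Nr4a1 and Nr4a3), in 13 windows of the 250 bases before a start site. They were searched on both strands for 8 motifs of factors downstream of the TCR, and the share of all 32851 windows with each motif is given beside it. TGACG, the short form of the cAMP response element (CRE), was in 8 of the 13 windows, beside 17.8% of all windows, and in 6 of the 7 genes. Overlapping windows of Egr2 among the 8 hold the same sites. The shares here and below are per window, and no share per gene was taken. The whole element, TGACGTCA, which contains the short form on both strands, was in Nfkbid alone (1.55% of windows). The EGR site GCGNGGGCG was in Nr4a1 (4.70%), the CArG box, to which SRF binds, in Egr2 (1.47%), and the κB site in Nfkbid (3.90%). The E-box CACCTG was in Cd5, Nfkbid and Itm2a (17.2%), while CAGCTG (13.0%) and the NR4A site AAAGGTCA (1.34%) were in none of the 7. One window is shown for each kind of match among genes whose footprints rose, and for Nr4a3 and Itm2a, with the motif in capitals, as the gene's own strand reads on GRCm38.p6.
Nfkbid, whole CRE: cgttagcgccgTGACGTCAgcgcgcggcgt
Nfkbid, κB site: gccccgccctGGGACTTCCCagagcaccac
Nr4a1, EGR site: tgcgtcagtggCGCCCCCGCccctctccat
Nr4a3, short CRE: cctgtggcataaaTGACGtgccgagagagc
Itm2a, short CRE: ccagcctgggactgCGTCAtaagtaagccc
Cd5, E-box: atcccacaaggaCACCTGgttctgcccagc
They lie at chr7:30422344-30422373, chr7:30422170-30422199, chr15:101266775-101266804 and chr4:48045145-48045174 on the plus strand, and at chrX:107403361-107403390 and chr19:10739131-10739160 on the minus strand. A match is a description of the letters and not a binding site, and genes with several start sites had more bases searched.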

How the data were processed

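The authors deposited whole-number read counts per Ensembl gene, 1 table per assay, named as adjusted, and neither labels nor headers say for what. Bowtie2 2.5.1, STAR 2.7.10a, HTSeq 2.0.3 and DESeq2 1.40.2 are named in the submitters' processing notes. For genome build and strand setting, nothing was given in the sources used here, so reads of a gene and of any antisense or overlapping gene cannot be told apart, and no positions were taken from the count tables: those printed for microRNAs and promoter windows are RefSeq's. The 5 rows per file that name no gene were left out, with 71.5% to 73.0% of the RNA-seq reads and 26.9% to 27.8% of the footprint reads. The comparison tables that the authors deposited pair gene IDs with symbols, which gave 9 of the 10 genes, and Egr2 came from a table of gene IDs. The 12 per-library columns in those comparison tables were not used.

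Groups were taken from the titles. Pairs of libraries within a group differed by more than sampling noise (chi-square per degree of freedom 3.41 to 12.9), and each was counted as 1 replicate. This does not show that the adjusted libraries are independent, since same-numbered WT and KO libraries mirrored each other. Genes passing edgeR's filterByExpr (minimum count 10) were fitted per assay with edgeR 4.0.16 in R 4.3.3 (quasi-likelihood test, TMM scaling, Benjamini-Hochberg adjustment over all genes tested, threshold 0.05), and with a genotype by assay interaction over all 12 libraries. CPM are reads per 1000000 of the TMM-scaled total. A fold change of low genes is moderated by a prior count of reads. The alternatives were RLE scaling, DESeq2 1.42.0, no filter on low counts, a replicate block and leaving out each library. Scripts were tested on simulated data for recovery of set changes. The simulated libraries were independent, unlike the mirrored ones here, so that test does not cover the error rate of the calls. The 10 genes and the lists were chosen with earlier results of these data known, and no list was tested as a set. Named genes outside the 10 are those called with and without the block, or else the list's largest footprint change; the other called genes of a list were named after their values were seen.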

Additional observations from a re-analysis of the deposited data

Results flagged for a closer look

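The effect of the KO on Egr3 differed between the assays by the interaction test, with footprints rising by 1.09 more than RNA on the log2 scale (SE 0.18; edgeR FDR 0.0294). Footprints of Egr3 were higher in 3 of 3 KO libraries than in any WT library, while its RNA overlapped between the labels. The levels rest on 25 to 90 footprint reads per library, and the call was lost without any 1 of the 12 libraries.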

How the results depend on the processing

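Under RLE scaling, the counts of called genes among the 10 were unchanged at 1 in RNA-seq, 8 in footprints and 1 for the interaction, and DESeq2 gave 1, 8 and 0, with no adjusted p for Egr3 in the interaction. Without a filter on low counts, 2 were called in RNA-seq, 8 in footprints and 0 for the interaction. Of all genes, 17.5% were called in footprints with RLE, 4.20% with DESeq2 and 7.92% without the filter. In RNA-seq these shares were 6.87%, 1.89% and 3.50%, and for the interaction 0.228%, 0.260% and 0.0761%. The replicate block left 0 called in RNA-seq and 4 in footprints, and 0 (block within each assay) or 1 (block of genotype and replicate number) for the interaction. Of the 68 other pathway and stage genes listed, the block left 0 of 5 called in RNA-seq and 2 of 20 in footprints. Leaving out 1 library gave 0 calls each time in RNA-seq (1.55% to 2.32% of all genes called) and for the interaction (0.0496% to 0.201%). In footprints it gave 4 calls without KO replicate 2 (7.75% of all genes called) and 5 without WT replicate 2 (9.63%) or WT replicate 3 (10.7%). It gave 6 without KO replicate 3 (10.9%) and 8 without WT replicate 1 (10.9%) or KO replicate 1 (8.68%). The cause was not tested, beyond the smaller number of libraries. No result changed sign among called values. The median footprint to RNA ratio of 0.28 in WT was 0.62 in KO libraries.

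The replicate numbers do not pair the mice by any label. Deviations from the group means of same-numbered WT and KO libraries correlated across genes at -0.98 to -0.94 in RNA-seq (7890 genes) and at -0.99 in footprints (7140 genes), and those of different numbers at 0.17 to 0.71 and 0.38 to 0.63. Genes are not independent replicates. What depth limits most is Egr2, with at most 9 reads in a group, and Egr3.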
